A study of Mus musculus with 36 samples.

Results

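The Rag GTPases (Rraga, Rragb, Rragc and Rragd), the folliculin complex (Flcn, Fnip1 and Fnip2) and GATOR1 (Depdc5, Nprl2 and Nprl3) were examined as 10 genes among the 53379 genes of the deposited tables, taken by name and role with earlier results of these data known. RNA was sequenced from formalin-fixed, paraffin-embedded mouse tissue in 36 libraries from 17 animals. Fusion mice carried an ASPSCR1-TFE3 allele behind a lox-stop-lox cassette (LSL/+), which a Cre recombinase switches on, and the ASPSCR1-TFE3 fusion is found in a subset of human translocation renal cell carcinomas. In 6 Sglt2-Cre; ASPSCR1-TFE3 LSL/+ mice, where Cre follows the promoter of a proximal tubule glucose transporter, 11 kidney tumor libraries (6 mice), 4 retro-orbital tumor libraries (4 mice), 3 brain tumor libraries (3 mice) and 4 non-transformed kidney libraries (4 mice) were made. The 3 control mice carried Sglt2-Cre without the fusion allele and gave 6 kidney libraries. The second model used Pax8-Cre, active in the developing nephron lineage, and gave 5 dysmorphic kidneys of Pax8-Cre; ASPSCR1-TFE3 LSL/+ fetuses and 3 control fetal kidneys. The labels give the control fetuses as Pax8-Cre, while the design text allows either Cre or the fusion allele alone. Ages were not given in the sources used here, beyond the fetal controls being age-matched.

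Amino acids are reported to the kinase complex mTORC1 on the lysosome by the Rag GTPases, which work as pairs of RagA or RagB with RagC or RagD. Folliculin with its partners Fnip1 and Fnip2 activates the GTPase of RagC and RagD and thereby admits mTORC1 substrates of the TFE3 family, while GATOR1 acts on RagA and RagB and shuts the pathway off when amino acids are scarce. The transcription factors TFEB and TFE3 bind a short E-box motif, and several genes of the pathway, Rragd and Flcn among them, are known targets of that family.

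Totals were 80205573 to 121415057 counts per library, and each of the 10 genes was counted at least 265 times in every library. Levels are given as CPM (reads of a gene relative to the TMM-scaled total of its library), with the libraries of an animal summed within its group. Control and non-transformed kidneys carried their proximal tubule markers (Lrp2, Slc34a1, Slc5a2, Slc22a6 and Cubn) at summed levels of 10180 to 13290 CPM. In the kidney tumors of mouse 4 and mouse 5 the same sum was 7442 and 6953 CPM, against 618.3 to 2334 CPM in the other 4 mice. Their distal nephron and collecting duct markers summed to 3895 and 5576 CPM, against 20.27 to 930.4 CPM in the other 4. Non-transformed kidneys had 5523 to 7488 CPM of these. The brain tumors held neuron and glia markers at 128.8 to 1538 CPM, against 27.62 to 108 CPM in the kidney tumors, and the retro-orbital tumors held endothelial markers at 675.6 to 978.7 CPM, against 219.2 to 454.5 CPM. Control fetus 3 stood apart from the other control fetuses, with 4.417 CPM for distal nephron and collecting duct markers against 308.4 and 848.9 CPM. Skeletal muscle markers reached 667.3 to 879 CPM in the control and 1758 to 4088 CPM in the dysmorphic fetal kidneys. Kidney tumors also held leukocyte markers at 89.46 to 256.2 CPM, against 50.98 to 71.46 CPM in controls (1 of 5, Cd68, called higher), and nephron progenitor markers at 4.766 to 357.6 CPM, against 1.71 to 2.883 CPM (both markers tested, Cited1 and Eya1, called higher). Podocyte markers were at 32.66 to 181 CPM in kidney tumors and 209.2 to 301 CPM in control and non-transformed kidneys (1 of 3, Podxl, called lower against non-transformed kidneys), and 1 of 7 neuron and glia markers, Mbp, was called higher against both. Against non-transformed kidneys 1 of 5 leukocyte and 1 of 3 endothelium markers were called higher, as were both nephron progenitor markers tested. The endothelium sums of these groups overlapped (219.2 to 454.5 against 308.3 to 336.4 CPM). The part of these markers in the changes of the 10 genes was not tested. In such bulk samples, fewer cells of a type and less RNA per cell cannot be told apart.

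The promoters of the 10 genes are described first, because the model expresses a factor of the E-box binding family. The motifs were chosen with earlier results of these data known. RefSeq windows on GRCm38.p6, from 250 bases before to 50 bases after the start of each gene, were found for all 10 genes and searched on both strands for CACGTG, a palindrome, and for 3 longer or related motifs. Only Rragb, Rragc and Fnip1 held CACGTG. Rragb held it 3 times, at bases -127, -36 and -3 counted from the start, Rragc once at -112 and Fnip1 once at -75. The stretches that hold these matches are printed 5′ to 3′ on the plus strand, with CACGTG in capitals, to show their spacing and surrounding bases. The Rragb stretch ends with its match at -3, and the base after it is not printed.
Rragb, chrX:153139807-153139960: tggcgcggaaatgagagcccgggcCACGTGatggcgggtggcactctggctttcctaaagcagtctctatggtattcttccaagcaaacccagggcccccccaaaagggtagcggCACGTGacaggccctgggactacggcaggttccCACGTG
Rragc, chr4:123917297-123917350: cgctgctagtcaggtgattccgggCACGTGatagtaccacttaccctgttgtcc
Fnip1, chr11:54438080-54438133: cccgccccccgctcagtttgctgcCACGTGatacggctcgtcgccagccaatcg

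Of 32851 promoter windows in the table, 7.15% held CACGTG at least once, 0.594% at least 2 times and 0.0883% (29 windows) at least 3 times. All 5 matches also read as TCACGTG on one of the strands, a motif that overlaps CACGTG and was present in 3.77% of windows. The longer CLEAR palindrome, which holds this E-box in its middle (0.326% of windows), and TCATGTG (3.77%) were not in any of the 10 windows. Of the 6 genes that rose in the kidney tumors, Rragb, Rragc and Fnip1 held the motif in this window and Rragd, Flcn and Fnip2 did not. A match is a stretch of letters and was not tested as a binding site. Among 29 other genes of the pathway with a window, 5 held CACGTG and none more than 2 copies.

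**Figure D1:**
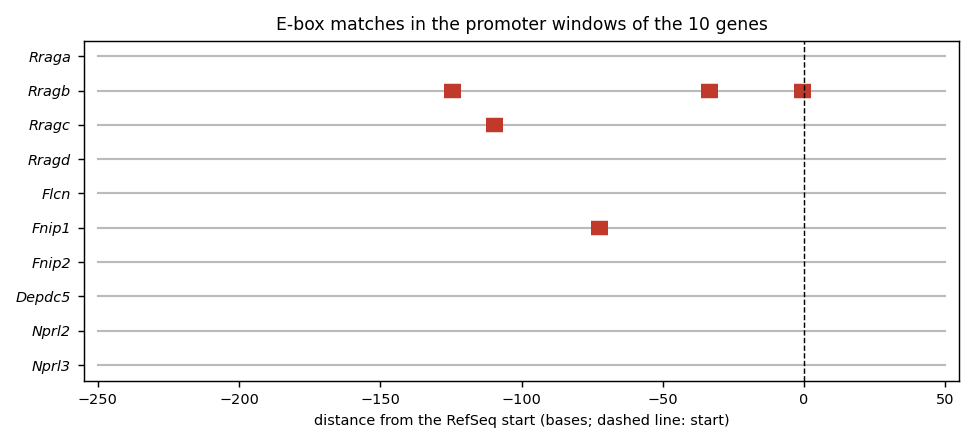
Positions of the E-box CACGTG (red) in the promoter windows of the 10 genes, in bases from the RefSeq start (dashed line), with each window drawn as a grey line from 250 bases before to 50 bases after it. Rragb holds 3 matches, Rragc and Fnip1 hold 1 each, and the other 7 genes hold none.

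In the kidney tumors, 6 of the 10 genes were higher than in control kidneys and 1 was lower, by edgeR's quasi-likelihood test at an adjusted p under 0.05. Across all 23578 genes tested in that comparison 12.5% were called higher and 6.51% lower. The 6 were Rragb, Rragc, Rragd and all 3 genes of the folliculin complex, and the 1 was Nprl2 of GATOR1. The median log2 fold change was 1.69 for the Rag genes, 1.41 for the folliculin complex and 0.00 for GATOR1, beside 0.05 for all genes tested. In 8 of the 10 the tumor and control animals did not overlap, as was the case for 29.8% of all genes. Against the non-transformed kidneys of fusion mice, Rragb, Rragc, Rragd, Flcn, Fnip1 and Fnip2 were higher and none of the 10 was lower, beside 12.1% of all genes called higher and 5.02% called lower, and these 6 were also the ones whose groups did not overlap (17.9% of all genes). The kidney tumors are shared by both comparisons, so these counts are not independent.

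**Figure D2:**
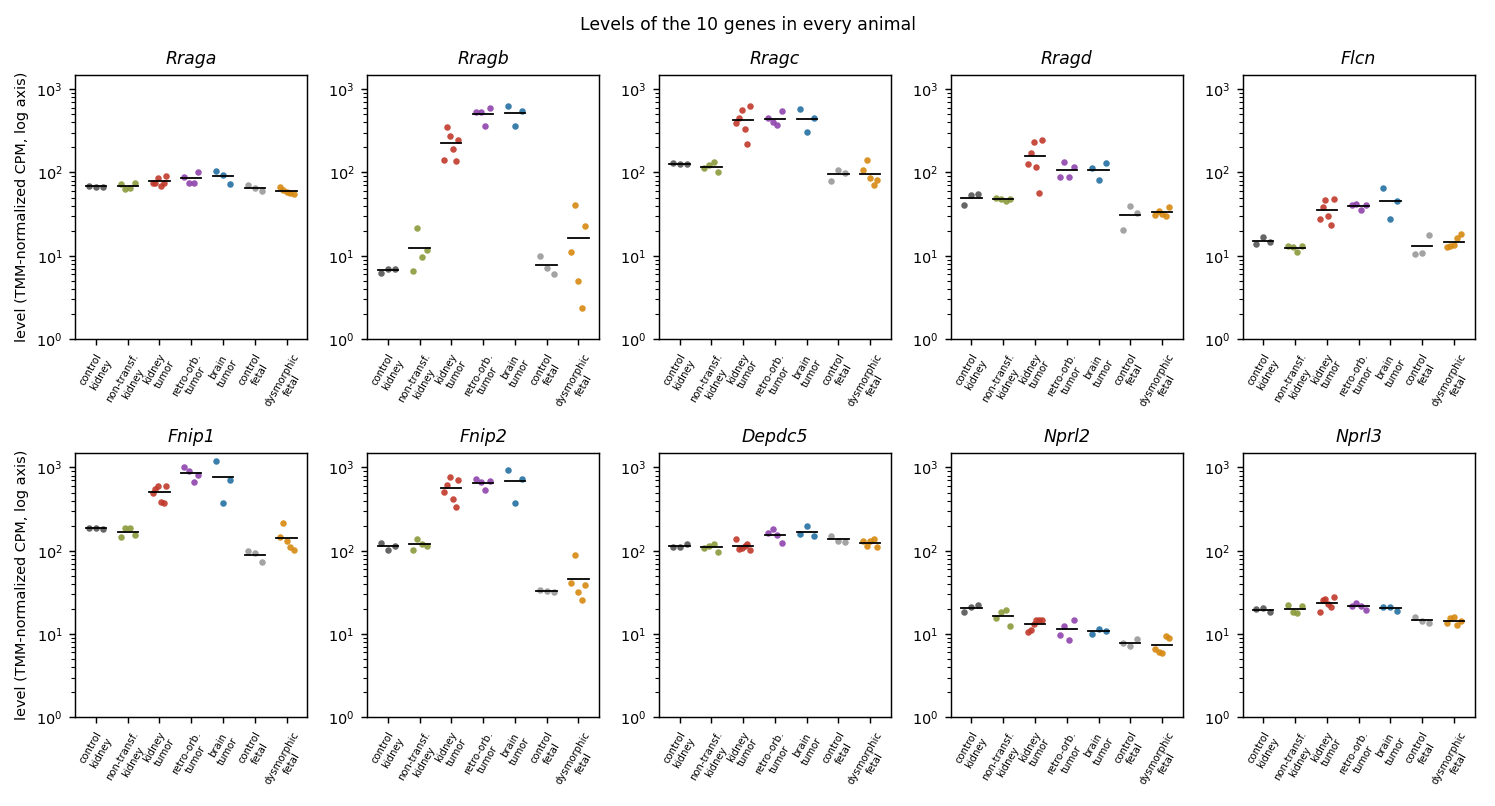
Level of each gene in every animal, in TMM-normalized CPM on a log axis, with 1 point per animal and a bar at the group mean. The Rragb points of kidney, retro-orbital and brain tumors lie between 135.9 and 625.1 CPM, above every kidney without a tumor, while Rraga stays between 54.79 and 105.1 CPM in all groups.

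Among the Rag genes, Rraga and Rragb encode the interchangeable RagA and RagB subunits. Rraga, a gene with a single exon on chromosome 4 (chr4:86575668-86577285, GRCm38), had 67.65, 67.72 and 68.29 CPM in the control kidneys and 69.52 to 91.68 CPM in the kidney tumors. Summed per mouse, every kidney tumor value lay above every control, although a single library of mouse 4 had 64.78 CPM. The log2 difference was 0.19 ± 0.12 (SE) with an adjusted p of 0.28 by edgeR, and no comparison called Rraga. Its group means ran from 59.4 CPM in the dysmorphic fetal kidneys to 89.93 CPM in the brain tumors, and the ranges of all neighbours in that order overlapped.

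Rragb (chrX:153139981-153171943, 11 exons) was at 6.139, 6.899 and 6.997 CPM in the 3 control kidneys, which are female by Y-linked transcripts. The non-transformed kidneys had 6.577, 21.34, 9.726 and 11.83 CPM in mice 1, 3, 4 and 5. Summed per mouse, the kidney tumors of the 6 mice ran from 135.9 to 354.2 CPM with a median of 217.5 CPM, and the single libraries ran from 112.8 to 472.1 CPM. The 2 male fusion mice (1 and 5) had the lowest kidney tumor values, 142.8 and 135.9 CPM, and the 4 females had 192.5 to 354.2 CPM. Flcn on chromosome 11 had the same order, at 27.47 and 23.33 CPM in the males and 29.87 to 47.44 CPM in the females. Rragc, Rragd, Fnip1 and Fnip2 did not. The part of sex in these orders was not tested gene by gene, and the Rragb difference between tumors and controls was called with sex as a covariate. Every kidney tumor exceeded every kidney without a tumor, and the log2 fold change was 5.04 ± 0.39 against controls and 4.12 ± 0.43 against non-transformed kidneys (edgeR adjusted p = 0.00017 and 0.0003).

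Rragc and Rragd encode RagC and RagD, the subunits that folliculin acts on. Rragc (chr4:123917446-123936997) was at 125, 126 and 129.9 CPM in control kidneys, at 102.2 to 132.4 CPM in non-transformed kidneys, and at 219.3 to 624.2 CPM (median 420.8) in kidney tumors. The groups did not overlap, and the log2 fold change was 1.75 ± 0.31 (edgeR adjusted p = 0.0075) against controls and 1.81 ± 0.27 (adjusted p = 0.0021) against non-transformed kidneys. Exons of Rragc overlap those of 4930535I16Rik on the other strand, and the strand setting of the counting is not given in the sources used here. Rragd (chr4:32983037-33022180) was at 40.34, 53.65 and 55.82 CPM in control kidneys and 45.18 to 49.14 CPM in non-transformed kidneys.

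Rragd in the kidney tumors spread over 57.18, 114.7, 125.7, 173.3, 230.2 and 248.4 CPM in mice 5, 4, 1, 2, 3 and 6, the widest spread between mice of the 10 genes (SD of 0.783 on the log2 scale). The tumor with the lowest Rragd, that of mouse 5, lay just above the highest control. The kidney tumors of mice 4 and 5 had the highest proximal tubule and distal nephron marker sums of the 6 mice. They also had the lowest Rragd, Rragc, Fnip1 and Fnip2 levels, and the part of remaining kidney tissue in those levels was not tested. The Rragd rise over controls lost its call without fusion mouse 2 (adjusted p = 0.0509), without fusion mouse 3 (0.0521) and without any 1 control mouse (0.0971 to 0.106). Over the 4 mice with both tissues, with the mouse as a block, its log2 difference from non-transformed kidneys was 1.25 (edgeR adjusted p = 0.107), and it was also lost without fusion mouse 1 or 3 (adjusted p of 0.0559 and 0.0672).

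The folliculin complex rose as a whole in the kidney tumors. Flcn (chr11:59791408-59810016), the tumor suppressor mutated in Birt-Hogg-Dubé syndrome, was at 13.67, 17.01 and 14.58 CPM in controls, 11.21 to 13.24 CPM in non-transformed kidneys and 23.33 to 47.44 CPM (median 34.17) in tumors. Its log2 fold change was 1.21 ± 0.26 against controls (edgeR adjusted p = 0.014) and 1.45 ± 0.21 against non-transformed kidneys (0.0019). Without any 1 control mouse the Flcn call against controls was lost, with edgeR adjusted p of 0.0547 to 0.0692.

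Fnip1 (chr11:54438199-54518235) encodes 1 of the 2 folliculin partners and had the tightest tumor rise of the complex, at 378.6 to 606.8 CPM (median 522.3) against 182.4, 188.5 and 188.5 CPM in controls and 147.7 to 186.3 CPM in non-transformed kidneys. The log2 fold change was 1.41 ± 0.19 (edgeR adjusted p = 0.0019) and 1.52 ± 0.17 (0.00047) in these comparisons. Fnip2 (chr3:79455974-79567796), the other partner, was at 101, 114.5 and 123.7 CPM in controls, 102.5 to 139 CPM in non-transformed kidneys and 333.3 to 768.1 CPM (median 561.1) in tumors. Its log2 fold change of 2.29 ± 0.29 (edgeR adjusted p = 0.0013) was the second highest of the 10 genes. Without the libraries of any 1 animal, the calls of Rragb, Rragc, Fnip1 and Fnip2 held in both comparisons.

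No GATOR1 gene was called higher in the kidney tumors. Depdc5 (chr5:32863701-32994236), the subunit that contacts the Rag GTPases, was at 110.6, 111.2 and 119.5 CPM in controls and 103.5 to 140 CPM (median 111.5) in kidney tumors, and these ranges overlapped. Nprl2 (chr9:107542226-107545706), the subunit with GTPase-activating activity, was at 18.29, 20.85 and 22.24 CPM in controls and 10.54 to 14.63 CPM (median 13.89) in kidney tumors, lower in every tumor. Its log2 change was -0.66 ± 0.16 (edgeR adjusted p = 0.024), and the call was lost without control mouse 2 (0.113) or control mouse 3 (0.128). Against non-transformed kidneys, which had 12.45 to 19.28 CPM, the log2 change of Nprl2 was -0.37 ± 0.18 with an adjusted p of 0.16 and overlapping ranges. Nprl3 (chr11:32225628-32267707), whose exons overlap Mpg on the other strand, was at 18.4 to 20.81 CPM in controls and 18.3 to 27.47 CPM in tumors and was not called (log2 difference 0.25 ± 0.16, adjusted p = 0.28).

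Leaving out control mouse 2 or control mouse 3 lowered the count of the 10 genes called between kidney tumors and controls from 7 to 4, and leaving out control mouse 1 lowered it to 5. Over all genes the share called in either direction went from 19.0% to 4.78% without control mouse 2, 4.96% without control mouse 3 and 8.55% without control mouse 1. Against non-transformed kidneys the count stayed at 5 or 6 in each fit without 1 mouse, and it was 5 with the mouse as a block, while the share of all genes called went from 17.1% to 5.59% at the lowest, without mouse 3, and to 4.12% with the block. Within the 4 mice that gave both tissues, the tumor exceeded the non-transformed kidney of its own mouse in 4 of 4 for each of the 6 genes, by 3.52 to 4.44 on the log2 scale for Rragb, 1.10 to 2.20 for Rragc, 0.25 to 2.28 for Rragd, 0.85 to 1.86 for Flcn, 1.06 to 1.75 for Fnip1 and 1.54 to 2.47 for Fnip2.

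**Figure D3:**
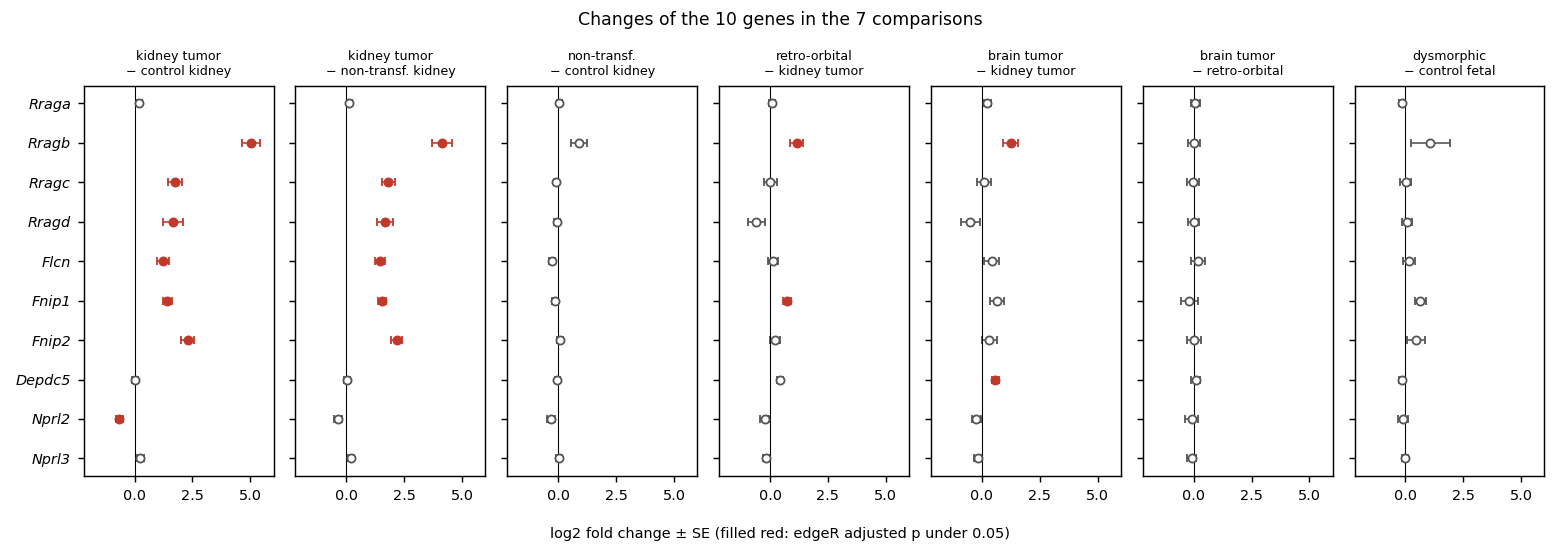
Log2 fold change ± SE of each gene in the 7 comparisons, with filled red points where the edgeR adjusted p was under 0.05. Of the 10 genes, 7 were called in kidney tumors against controls, 6 against non-transformed kidneys, 2 in each of the comparisons of retro-orbital and brain tumors with kidney tumors, and 0 in the other 3.

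None of the 10 genes was called between non-transformed and control kidneys by edgeR or by DESeq2, where these tools called 0.00952% and 1.81% of all genes in their fits, so that the count of 0 says little about the 10. One of them, Rragb, had an unadjusted edgeR p under 0.05, as did 11.7% of all genes. Rragb had a log2 difference of 0.90 ± 0.36 there with an edgeR adjusted p of 0.39, and 3 of the 4 non-transformed kidneys lay above the highest control value. Flcn was lower in every non-transformed kidney than in every control, with a log2 difference of -0.26 ± 0.13 (adjusted p = 0.48), where 11.2% of all genes had groups that did not overlap.

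In the retro-orbital tumors 2 of the 10 genes, Rragb and Fnip1, were higher than in kidney tumors and none was lower, where 8.26% of all genes were called higher and 9.45% lower. Rragb was at 526.4, 526.2, 362.9 and 597.2 CPM in the retro-orbital tumors of mice 2, 3, 5 and 6. All lay above the summed kidney tumors of every mouse, with a log2 difference of 1.15 ± 0.27 (edgeR adjusted p = 0.017). Fnip1 was at 1013, 914, 667.3 and 823.8 CPM in the same tumors, again above the summed kidney tumors of every mouse. Its log2 difference was 0.74 ± 0.17 (adjusted p = 0.017). Single kidney tumor libraries reached 472.1 CPM of Rragb and 740 CPM of Fnip1, both in mouse 2, above the retro-orbital tumor of mouse 5. Rragb and Fnip1 were each higher in 4 of 4 mice that gave both tumors, with libraries summed, and 16.3% of all genes had groups that did not overlap. The count fell to 0 without mouse 3, and to 1 without mouse 2 or mouse 6, and the share of all genes called in either direction went from 17.7% to 7.24%, 8.06% and 7.92% in these fits.

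Depdc5 was at 163.7, 184.5, 152.7 and 125.4 CPM in these retro-orbital tumors, with a log2 difference of 0.42 ± 0.13 and an edgeR adjusted p of 0.058 that passed the threshold under 7 of the other settings. It did not pass with the mouse as a block (0.53, edgeR adjusted p = 0.0633), without the filter on low counts or in 5 of 6 fits without 1 mouse. Rragd was at 88.6, 134.2, 87.11 and 117.4 CPM, inside the range of the kidney tumors, with a log2 difference of -0.59 ± 0.36 (adjusted p = 0.28). Rragc, Flcn and Fnip2 had overlapping ranges in kidney and retro-orbital tumors, and their log2 differences lay between 0.02 and 0.21. Beside Rragb and Fnip1, endothelial markers were higher in the retro-orbital tumors (2 of 3 called), the nephron progenitor sum was 3.581 to 12.74 CPM (1 of 2 tested markers called lower), and the proximal tubule sum was 81.29 to 990.7 CPM, below the kidney tumor of the same mouse in 4 of 4 (0 of 5 called). The part of these markers in the differences was not tested.

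In the brain tumors Rragb was at 625.1, 364.8 and 552 CPM in mice 1, 2 and 4, above the summed kidney tumors of every mouse. The single kidney tumor libraries of mouse 2 had 244.7 and 472.1 CPM, on both sides of its brain tumor. The log2 difference of Rragb was 1.24 ± 0.31 (edgeR adjusted p = 0.043). Within a mouse, with libraries summed, it ran from 0.04 in mouse 2 to 2.13. Depdc5 was at 157.7, 197.6 and 149.1 CPM, also above the summed kidney tumors of every mouse, with a log2 difference of 0.59 ± 0.15 (adjusted p = 0.048). The 2 genes were called where 4.54% of all genes were called higher and 15.3% did not overlap between groups. Neither call held without any 1 of the 6 mice, where 1.26% to 6.36% of all genes were called in either direction, against 8.74% with all mice, and with the mouse as a block, a fit that called 0 of 21827 genes, the log2 differences were 1.25 for Rragb and 0.50 for Depdc5 (edgeR adjusted p = 0.401 and 0.484). The brain tumor of mouse 2 had the lowest Rragb, Rragc, Rragd, Flcn, Fnip1 and Fnip2 and the highest Depdc5 of the 3, and it also held the most neuron and glia marker RNA (1538 CPM), whose part in these levels was not tested. The proximal tubule sum was 282.7 to 727.6 CPM in the brain tumors, below the kidney tumor of the same mouse in 3 of 3 (0 of 5 markers called). The podocyte sum, 15.37 to 35.92 CPM, was also below it in 3 of 3 (0 of 3 called). Against kidney tumors 2 of 7 neuron and glia markers were called higher and 1 of 3 endothelium markers lower. The part of these markers was not tested either.

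Fnip1 showed the widest range among the brain tumors, at 1191, 379.1 and 715.6 CPM, and its log2 difference from kidney tumors of 0.64 ± 0.31 was not called (edgeR adjusted p = 0.21). Between brain and retro-orbital tumors none of the 10 genes was called by edgeR or DESeq2, where 1.73% and 9.39% of all genes were, and none had an unadjusted edgeR p under 0.05, where 21.5% of all genes did. The edgeR calls over all genes ran from 0 of 21372 without mouse 2 to 1316 of 22033 without mouse 1. None of the 10 had groups that did not overlap there, against 18.9% of all genes. The log2 differences there ran from -0.19 ± 0.37 for Fnip1 to 0.19 ± 0.28 for Flcn.

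Because the Rag and Fnip proteins are built from alternative paralogs, the share of 1 paralog in its pair was computed from counts per kilobase of exon, which does not depend on library scaling. How reads shared by paralogs were counted is not given in the sources used here, so these shares carry that uncertainty. Rragb made up 6.051%, 6.804% and 6.9% of the Rraga plus Rragb signal in control kidneys and 56.51% to 77.26% (median 65.98%) in kidney tumors. Its share was 80.8% ± 2.36 (SD, n = 4) in retro-orbital and 79.8% ± 5.38 (SD, n = 3) in brain tumors. Against kidney tumors the brain ranges overlapped (14.3 percentage points, exact permutation p = 0.0476, adjusted p = 0.111), and the share was higher in 2 of 3 mice, with 73.94% in the brain and 77.26% in the kidney tumor of mouse 2. RagA transcripts thus outnumbered RagB transcripts per kilobase in every kidney without a tumor, and RagB transcripts outnumbered RagA transcripts in every tumor. The sum of both per kilobase rose from 44.91 to 44.93 CPM per kb in the 3 controls to 148 ± 38.9 in kidney tumors (SD, n = 6) and 275 ± 50.6 in retro-orbital tumors (SD, n = 4).

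Rragd was 20.2% ± 3.05 of the pair in control kidneys (SD, n = 3) and 18.5% ± 2.44 in kidney tumors (SD, n = 6), a difference of -1.74 percentage points with an exact two-sided permutation p of 0.369, although the sum of the pair rose from 47.7 ± 0.921 to 160 ± 58.9 CPM per kb. Outside the kidney the Rragd share was lower on average, with overlapping ranges. It was 13.6% ± 2.88 (SD, n = 4) in retro-orbital tumors, -4.92 percentage points from kidney tumors (exact permutation p = 0.0286, adjusted p = 0.0858), and lower in 4 of 4 mice that gave both tumors. In brain tumors it was 13.9% ± 2.43 (SD, n = 3), a difference of -4.57 percentage points (exact permutation p = 0.0476, adjusted p = 0.111), and lower in 3 of 3 mice.

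Fnip2 held a larger share of the Fnip1 plus Fnip2 signal in the kidney tumors than in kidneys without a tumor. Its share of the pair was 34.0% ± 2.37 in controls (SD, n = 3), 37.6% ± 1.57 in non-transformed kidneys (SD, n = 4), 48.1% ± 3.21 in kidney tumors (SD, n = 6), 39.8% ± 1.79 in retro-orbital tumors (SD, n = 4) and 44.0% ± 3.26 in brain tumors (SD, n = 3). For both Rragb and Fnip2 the kidney tumor shares lay above those of control and of non-transformed kidneys in every animal, with an exact two-sided permutation p of 0.0119 and 0.00476, the smallest that these group sizes allow. The Fnip2 share in retro-orbital tumors lay below that of every kidney tumor (exact permutation p = 0.00952), while the brain and kidney tumor ranges overlapped (exact permutation p = 0.131, adjusted p = 0.25). After Benjamini-Hochberg adjustment over 21 share tests these 5 exact permutation values came to 0.05 and the Rragb share in retro-orbital against kidney tumors to 0.0501, at the threshold and not under it. These tests treat the tissues of a mouse as separate samples. Within the mice that gave both tissues, the Rragb share differed from non-transformed kidney by 46.4 to 56.9 percentage points and the Fnip2 share by 4.08 to 12.9, both higher in 4 of 4 tumors, and an exact sign-flip permutation test over 4 mice cannot go below 0.125.

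**Figure D4:**
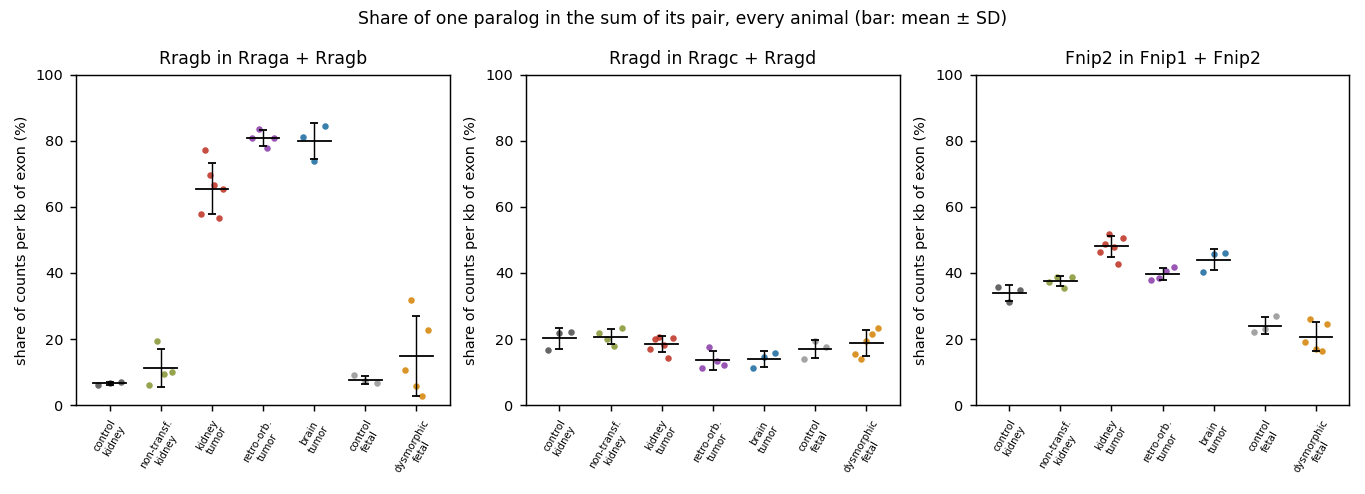
Share of Rragb in Rraga plus Rragb, of Rragd in Rragc plus Rragd and of Fnip2 in Fnip1 plus Fnip2, as percent of counts per kilobase of exon, with 1 point per animal and bars at mean ± SD. Rragb holds 6.027% to 19.43% of its pair in kidneys without a tumor of the Sglt2-Cre model and 56.51% to 84.51% in the tumors.

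In the Pax8-Cre model none of the 10 genes was called between dysmorphic and control fetal kidneys by edgeR or DESeq2, where 2.67% and 7.7% of all genes were, and 1 (Fnip1) had an unadjusted edgeR p under 0.05, where 20.3% of all genes did. The 605 genes that edgeR called became 5 with sex as a covariate and 0 in 6 of 8 fits without 1 animal. Rragb was at 9.834, 7.126 and 6.11 CPM in the control fetuses and at 11.22, 40.36, 4.995, 2.346 and 22.55 CPM in the dysmorphic ones, on both sides of the controls. Its log2 difference was 1.08 ± 0.84 (edgeR adjusted p = 0.52). Fnip1 was at 100.1, 93.81 and 73.01 CPM in controls and 145.1, 214.9, 131.7, 111.2 and 101.6 CPM in dysmorphic kidneys, with every dysmorphic kidney above every control (14.7% of all genes did not overlap), a log2 difference of 0.65 ± 0.26 and an adjusted p of 0.21. Dysmorphic fetus 2 had the highest Rragb, Rragc, Fnip1 and Fnip2 of its group, the lowest sum of skeletal muscle markers (1758 CPM), and the highest sums of nephron progenitor (127.5 CPM) and distal nephron and collecting duct markers (98.66 CPM). Marker sums of the dysmorphic and control fetal kidneys did not overlap for proximal tubule (22.1 to 805.5 against 1130 to 1377 CPM, 0 of 5 called), podocytes (30.41 to 80.42 against 115.3 to 224 CPM, 1 of 3 called lower), endothelium (340.7 to 463 against 208.3 to 311.8 CPM, 0 of 3 called) and skeletal muscle (4 of 4 called higher). The part of these markers in the values of the 10 genes was not tested.

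The fusion effect of the Sglt2-Cre kidney tumors was larger than that of the fetal Pax8-Cre kidneys for 3 genes, by a direct test of the difference of the log2 changes. The difference was 4.02 ± 0.93 for Rragb (edgeR adjusted p = 0.015), 1.79 ± 0.42 for Rragc (0.017) and 1.88 ± 0.50 for Fnip2 (0.029), where 6.87% of all genes had a difference called in that direction. For Rragd (1.61 ± 0.52, adjusted p = 0.065), Flcn (1.10 ± 0.37, 0.077) and Fnip1 (0.80 ± 0.33, 0.14) it was not called. Fetal stage, Cre driver and tumor state differ together between the models and cannot be told apart. The count of 3 fell to 0 without control mouse 2 or 3 and rose to 5 without fusion mouse 5, where the share of all genes called in either direction went from 8.94% to 3.79%, 4.08% and 11.7%. Fnip2 lost its call in 7 of 17 fits without 1 animal, those without any 1 control mouse, any 1 control fetus or fusion mouse 3.

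The 11 kidney tumor libraries allowed a look within mice. In the 5 mice with a pair of libraries, Rragb differed by a median of 0.265 on the log2 scale between the libraries of a mouse and by a median of 0.574 over the 50 pairs of single libraries from different mice, and Rragd by 0.457 within and 0.799 between. For Fnip1 (0.49 within, 0.444 between), Fnip2 (0.646 and 0.56) and Rraga (0.225 and 0.186) the median within a mouse was the larger, and for the other 5 genes it was the smaller. These medians are a description, with no test. The 2 tumor libraries of mouse 2 had 244.7 and 472.1 CPM of Rragb, the most unequal pair for that gene.

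Across the 20 summed samples of the Sglt2-Cre animals, the log2 levels of the genes that rose in tumors ran in parallel, as a description over samples that share the tumor and kidney split and, in part, the animal. Pearson's r was 0.984 for Rragc with Fnip2, 0.971 for Flcn with Fnip2 and 0.97 for Rragb with Fnip2, while Rragd was nearest to Rragc (r = 0.905) and further from Rragb (0.775). Nprl2 ran against them (r = -0.759 with Rragb and -0.722 with Fnip2), Depdc5 had r = 0.103 with Rragd and 0.532 with Rragb, and Rraga reached no more than 0.677. Among 9656 genes with a mean log2 CPM of at least 3, the profiles most like Rragb were those of Rasd2 (r = 0.988), Ckap2 (0.988), Aqp3 (0.986), Cdk1 (0.985) and Cdkn3 (0.984), and those most like Rragd were Fuca2 (0.96), Plin3 (0.953), Pnpla7 (0.952), Tmem104 (0.95) and Sgpl1 (0.95).

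The other parts of the pathway were counted from a list of 35 genes. In kidney tumors against control kidneys 4 of the 35 were higher, beside 12.5% of all genes, and 4 lower, beside 6.51%, with a median log2 change of -0.002. The count of 8 fell to 1 without control mouse 2 or 3 and to 3 without control mouse 1, the fits in which the share over all genes went from 19.0% to 4.78%, 4.96% and 8.55%, and Tsc1 was the 1 gene of the 8 called in all 9 fits without 1 animal. Of Ragulator, the lysosomal anchor of the Rag GTPases, Lamtor1 (log2 change 1.24 ± 0.30, edgeR adjusted p = 0.022) and Lamtor3 (1.06 ± 0.29, 0.033) were higher and the other 3 subunits were not called. The arginine transporter and sensor Slc38a9 was also higher (0.63 ± 0.16, 0.025), and Castor2, a homolog of the arginine sensor Castor1, was lower (-1.18 ± 0.28, 0.022).

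No gene of GATOR2 (5 genes), which restrains GATOR1, or of KICSTOR (4 genes), which holds GATOR1 on the lysosome, was called between kidney tumors and controls, where 19.0% of all genes were called, so that 0 of these 9 says little about them. Tsc1, a subunit of the complex that inhibits Rheb, went from 83.03 to 285.2 CPM on average (log2 change 1.76 ± 0.24, edgeR adjusted p = 0.0021), while Tsc2, Tbc1d7, Rheb and Rhebl1 were not called. Of mTORC1 itself only its inhibitor Deptor was called, and it was lower (log2 change -1.61 ± 0.44, adjusted p = 0.033). Among the MiT/TFE factors, Mitf (-1.05 ± 0.22, 0.014) and Tfec (-1.49 ± 0.40, 0.032) were lower and the mouse Tfe3 gene was not called (0.31 ± 0.23, adjusted p = 0.35). Against non-transformed kidneys 7 of the 35 were called, with Lamtor1, Lamtor3, Slc38a9 and Tsc1 higher, beside 12.1% of all genes, and Castor2, Deptor and Mitf lower, beside 5.02%. The count of 7 fell to 2 without mouse 3, to 4 without mouse 1 or 4 and to 1 with the mouse as a block, where the share over all genes went from 17.1% to 5.59%, 6.4%, 12.6% and 4.12%, and Lamtor1 and Tsc1 were called in all 6 fits without 1 mouse.

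**Figure D5:**
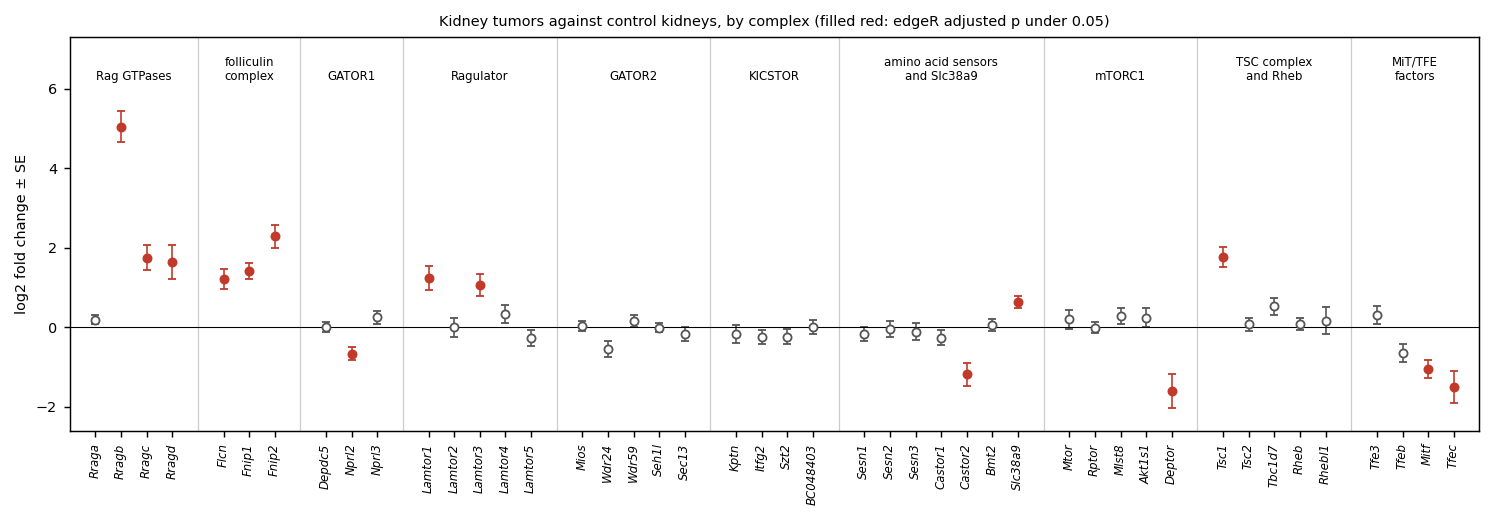
Log2 fold change ± SE of kidney tumors against control kidneys for the 10 genes and 35 other genes of the pathway, grouped by complex, with filled red points where the edgeR adjusted p was under 0.05. Rragb stands at 5.04, Tsc1 at 1.76 and Deptor at -1.61, and GATOR2 and KICSTOR hold no called gene.

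In retro-orbital tumors 2 of the 35 were higher, Sesn1 (log2 difference 0.64 ± 0.15, edgeR adjusted p = 0.019) and Tsc1 (1.06 ± 0.25, 0.018), and 6 were lower than in kidney tumors, beside 8.26% of all genes higher and 9.45% lower. The 6 were Mtor (-1.31 ± 0.23), Sesn2 (-0.96 ± 0.18), Lamtor2 (-0.83 ± 0.22), Seh1l (-0.34 ± 0.09), Deptor (-2.02 ± 0.51) and Tfec (-2.70 ± 0.52). The count of 8 fell to 3 without mouse 2 or 6 and to 4 without mouse 3, where the share over all genes went from 17.7% to 8.06%, 7.92% and 7.24%, and Mtor and Sesn2 were called in all 6 fits without 1 mouse. In brain tumors Sesn1 (0.84 ± 0.20) and Slc38a9 (0.84 ± 0.20) were called higher and Tfec (-3.69 ± 0.62) lower, beside 4.54% and 4.2% of all genes, and this count of 3 fell to 1 in each fit without 1 mouse and to 0 with the mouse as a block. Of the 35, 1 was called in the dysmorphic fetal kidneys, where 2.67% of all genes were called. It was Deptor (0.88 ± 0.16, edgeR adjusted p = 0.039), whose call was lost in the 6 of 8 fits without 1 animal that called no gene.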

How the data were processed

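RNA had been extracted from formalin-fixed, paraffin-embedded mouse tissue and made into stranded total RNA libraries without removal of ribosomal RNA. The authors deposited raw counts per gene in 2 tables, not normalized. The submitters' processing notes name STAR 2.5.2a, Bowtie2, FastQC and MultiQC without roles, and the counter, annotation and handling of reads shared by paralogs are not given in the sources used here. Genes were matched to GENCODE M21 (GRCm38) by ID (53274 of 53379 ignoring the version). Between 79.04% and 84.33% of counts from 1 to 20 were even, so the number of independent fragments may be lower than the counts, and halved counts were tried.

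Libraries of an animal were summed within a group, so that n counts animals. The 2 groups of a comparison entered a fit of their own in edgeR 4.0.16 (R 4.3.3, TMM, filterByExpr, quasi-likelihood F-test), with Benjamini-Hochberg adjusted p under 0.05 called over all genes, and all 10 genes passed the filter in every comparison. SE is the size of the log2 fold change over the square root of F. Paralog shares were tested with exact permutation over animals, treating tissues of 1 mouse as separate, and, as an alternative chosen after the data were seen, by sign flips of differences within mice. Alternatives were other scaling factors, DESeq2 1.42.0, no filter, halved counts, sex read from Y-linked transcripts (over 50 CPM called male), separate libraries, a joint fit, blocks and leaving out each animal. Tissues of the same mouse pair the samples, and their deviations from group means correlated at 0.016 to 0.171 (kidney tumor and non-transformed kidney), 0.137 to 0.259 (kidney and retro-orbital tumors) and -0.046 to -0.018 (kidney and brain tumors). The code was tested on simulated data.

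The 10 genes, the 35 other pathway genes, the marker lists and the promoter motifs were chosen with earlier results of these data known. Named genes are those 10, any of the 35, and the 5 genes most correlated with Rragb and with Rragd. Cell type markers and genes whose exons overlap those of the 10 are also named. The paper named for the study describes other mice, and its methods were not applied beyond DESeq2 as an alternative.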

Additional observations from a re-analysis of the deposited data

Results flagged for a closer look

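Of 52 checks for a sample far from the rest of its group, 2 were met, where chance gives about 1 in 20, or 2.6. The Flcn level in the retro-orbital tumor of mouse 5 was 35.11 CPM, below 40.94, 41.05 and 41.93 CPM in the other 3. The Fnip2 level in dysmorphic fetus 2 was 89.35 CPM, above 25.89 to 40.62 CPM in the other 4.

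For 3 genes the change with the fusion differed between the Sglt2-Cre kidney tumors and the Pax8-Cre fetal kidneys by the test of the difference itself. On the log2 scale the difference was 4.02 for Rragb, 1.79 for Rragc and 1.88 for Fnip2, larger in the kidney tumors in each case, where 6.87% of all genes were called in that direction. None of the 3 was called without control mouse 2 or without control mouse 3.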

How the results depend on the processing

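The counts of the 10 genes called were within 1.5 times of those given under every setting for kidney tumors against control or non-transformed kidneys, except without control mouse 2 or 3 (range 4 to 7 over the animals left out). For brain against kidney tumors the count of 2 became 0 without the filter on low counts, 1 with sex as a covariate, 0 with the replicate block and 0 in each of 6 fits that left out a mouse. For retro-orbital against kidney tumors it ranged from 0 to 3 with a mouse left out. For the difference between the models the count of 3 became 5 with sex as a covariate, 5 with every library as its own sample and 0 to 5 with an animal left out.

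With the mouse as a replicate block, the 6 genes higher in kidney tumors than in non-transformed kidneys became 5 (Rragd 1.25 on the log2 scale, lost), the 2 in retro-orbital tumors stayed 2, and the title prefix of the fetuses as a block gave 0. No paired fit was made between brain and retro-orbital tumors, which share 1 mouse.

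With every library as its own sample, the differences in paralog share passed the threshold. In percentage points they were 59.5, 54.8, 14.7 and 13.8 for Rragb (kidney tumors against control and non-transformed kidneys, then retro-orbital and brain against kidney tumors), -5.24 and -4.90 for Rragd (retro-orbital and brain against kidney tumors), and 14.7, 11.0 and -8.83 for Fnip2 (kidney tumors against control and non-transformed kidneys, then retro-orbital against kidney tumors). Libraries of a mouse are not independent. With differences within mice as a replicate block, an alternative chosen after seeing the data, the shares of the 3 pairs in the 3 comparisons that share mice (not those with control kidneys) kept their mean direction, and none passed the threshold, which 3 or 4 mice cannot reach.

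Changes of direction were limited to values that were not called. Fnip1 in non-transformed against control kidneys was 0.009 with sex as a covariate. With a mouse left out, Fnip2 in brain against kidney tumors ranged from -0.04 to 0.643, Flcn in brain against retro-orbital tumors from -0.126 to 0.468 and Fnip1 there from -0.65 to 0.226 on the log2 scale. In the same fits the Rragb share in brain against retro-orbital tumors ranged from -3.30 to 2.02, the Rragd share there from -0.826 to 1.72, and the Rragd share in non-transformed against control kidneys from -1.19 to 1.57 percentage points. The cause of these moves was not tested. With 3 control kidneys and 3 brain tumors, leaving out 1 animal leaves 2 in the group.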
